A study of Mus musculus with 6 samples.

Results

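A set of 7 genes of the primary (azurophil) granules and of the early granulocyte stage were followed in whole bone marrow of *MxCDX2* and control mice: *Mpo*, *Elane*, *Prtn3*, *Ctsg*, *Ms4a3*, *Serpinb1a* and *Srgn*. They were chosen by symbol and matched to Ensembl identifiers, so that they made 7 of the 39179 genes in the files. All 7 had enough reads to be among the 15980 genes tested. The 3 *MxCDX2* mice carried both *RsCDX2*, the human *CDX2* coding sequence behind a loxP-flanked stop at *Rosa26*, and *Mx1Cre*, which drives Cre from the interferon-inducible *Mx1* promoter and is not limited to a single cell type. Each of the 3 control mice had another genotype, namely *RsCDX2* alone, *Mx1Cre* alone and wild type, so that differences between control animals and between control genotypes cannot be told apart. The 6 animals were littermates that received 3 injections of poly(I:C) at 10 µg per g of body weight at 3 months of age, and marrow RNA was prepared 6 weeks later for poly(A) RNA sequencing.

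Granulocytes fill their granules in the order in which they mature. Promyelocytes make the primary granules, whose serine proteases and myeloperoxidase are packed on the proteoglycan serglycin, while secondary and tertiary granule proteins are made later, at the myelocyte and following stages, when transcription of the primary granule genes has stopped. Monocyte precursors share the first part of this program, and the transcription factors C/EBP, PU.1, MYB and RUNX are known for their action on its promoters.

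Between 38646101 and 49899650 reads per mouse were counted on genes. Mouse *Cdx2* had 152, 155 and 183 counts in the *MxCDX2* mice and 4, 0 and 0 counts in the *RsCDX2*, *Mx1Cre* and wild-type control mice. The reads were aligned to the mouse genome, so that reads of the human transgene and of the mouse gene cannot be told apart in these counts. The wild-type control stood apart from the other controls on the second principal component, which held 15.9% of the variance, and this touched the granule genes directly. It was below 1/2 of each of the other controls in 391 of 15980 tested genes (2.45%), and 5 of the 7 granule genes were among them. Megakaryocyte markers were high in the same mouse, with a summed level 10.2 times the mean of the other controls over 9 of 9 markers tested. For this reason the test of each granule gene is given with and without the wild-type mouse, whose part in the results was otherwise not tested.

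The letters upstream of the granule genes are shown because *Ctsg* and *Ms4a3* rose together while their companions *Mpo*, *Elane* and *Prtn3* did not pass the test. RefSeq promoter windows (GRCm38.p6, 250 bases before to 50 bases after the start of transcription) were found for 6 of the 7 genes, *Serpinb1a* being the missing one. They were searched on both strands for GAGGAAG (PU.1), TAACNG or CAACNG (MYB), TTGCNNAA (C/EBP), TGTGGT (RUNX), TTTATNG (CDX) and TATAA (TATA box). Printed below, 5′ to 3′, are the bases of each window upstream of the first annotated exon of the gene that the window reaches, with the matches that lie wholly within them in capitals. They cover chr11:87793534-87793580 (+) for *Mpo*, chr10:79886062-79886246 (+) for *Elane*, chr10:79879417-79879613 (+) for *Prtn3*, chr14:56102575-56102824 (−) for *Ctsg* and chr19:11640852-11641101 (−) for *Ms4a3*. *Srgn* had 2 windows, which were searched but are not printed.
Mpo: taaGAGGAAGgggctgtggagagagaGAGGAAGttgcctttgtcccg
Elane: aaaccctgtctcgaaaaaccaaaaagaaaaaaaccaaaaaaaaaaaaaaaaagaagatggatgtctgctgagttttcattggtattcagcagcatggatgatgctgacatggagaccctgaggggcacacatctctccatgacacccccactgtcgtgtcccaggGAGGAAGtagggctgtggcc
Prtn3: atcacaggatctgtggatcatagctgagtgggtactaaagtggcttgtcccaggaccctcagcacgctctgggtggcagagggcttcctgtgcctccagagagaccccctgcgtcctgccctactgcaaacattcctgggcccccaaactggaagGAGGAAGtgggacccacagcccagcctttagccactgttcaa
Ctsg: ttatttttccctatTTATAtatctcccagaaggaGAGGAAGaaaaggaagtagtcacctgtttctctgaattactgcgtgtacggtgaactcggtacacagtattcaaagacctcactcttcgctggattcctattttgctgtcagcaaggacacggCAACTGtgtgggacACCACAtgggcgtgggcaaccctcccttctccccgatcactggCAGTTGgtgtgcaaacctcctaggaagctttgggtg
Ms4a3: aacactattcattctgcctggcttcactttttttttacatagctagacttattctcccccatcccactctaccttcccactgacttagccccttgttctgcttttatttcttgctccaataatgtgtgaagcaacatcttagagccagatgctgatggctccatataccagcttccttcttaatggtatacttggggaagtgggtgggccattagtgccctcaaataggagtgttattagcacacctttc

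The PU.1 letters GAGGAAG stood in the windows of 4 of the 6 genes searched and were absent from those of *Ms4a3* and *Srgn*, while 13.63% of the 32851 RefSeq promoter windows of the same length hold them. *Mpo* had 2 copies, 247 and 224 bases before the start. *Elane* had a single copy 85 bases, *Prtn3* 95 bases and *Ctsg* 216 bases before the start. *Elane* and *Prtn3*, which lie next to each other on chromosome 10, shared the order PU.1, MYB and TATA. Their MYB match CAACGG lay 51 and 56 bases and their TATAA 31 and 32 bases before the start, within or at the edge of annotated exons and therefore not printed in full, and *Elane* had another MYB match on the other strand, 20 bases before the start. *Mpo* had a MYB match 166 bases before the start, also within an exon. *Ctsg* held CAACTG on either strand, 93 and 36 bases before the start, and the RUNX letters at 79 bases, but its TATAA match was far upstream, at 236 bases. The window of *Ms4a3* held none of these, and a lone C/EBP match began at base 42 of the transcript, counted from 1 at the start. A MYB match is common, in 49.66% of all windows, as is TATAA in 24.87%, while C/EBP letters stood in 10.8%, RUNX letters in 16.76% and CDX letters in 10.91%. The CDX letters were found in 1 of the 6 genes, *Srgn*, 179 bases before the start in the first of its 2 windows. *Ctsg* and *Ms4a3* had none in their windows. Both windows of *Srgn* held MYB letters, the first also TATAA at 98 bases and the second RUNX letters at 202 bases before the start. These matches describe letters only.

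Counts below are normalized counts, that is reads brought to a common library size with TMM factors, and are given in the order *RsCDX2*, *Mx1Cre* and wild-type control, then *MxCDX2* mice 1, 2 and 3. A gene was called when its log2 fold change (MxCDX2 over control) exceeded 1 in size with an adjusted p below 0.05 in the quasi-likelihood test of edgeR, adjusted after Benjamini and Hochberg over all tested genes. By this rule 2 of the 7 genes were called, *Ctsg* and *Ms4a3*, both upregulated. The background was 13.6% of tested genes called in either direction, 4.59% upregulated and 9.03% downregulated. In whole marrow a change in the number of cells of a type and a change in RNA per cell cannot be told apart. The separate mice are the replicates, so that each p-value sets the difference between the groups against the spread among mice within a group. In the control group that spread also holds differences of genotype.

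*Ctsg* (ENSMUSG00000040314, chr14:56099881-56102574, minus strand) encodes cathepsin G, a chymotrypsin-like serine protease of the primary granules. It had 17332, 11194 and 3612 normalized counts in the control mice and 50936, 49158 and 60062 in the *MxCDX2* mice. The lowest *MxCDX2* mouse was well above the highest control mouse. The control mean was 10713 ± 6873 (SD, n = 3) and the *MxCDX2* mean 53385 ± 5850 (SD, n = 3), a 4.98-fold difference. The log2 fold change was 2.32 (SE 0.52, edgeR adjusted p = 0.0237) and its 95% interval ran from 1.07 to 3.57. Without the wild-type control, the lowest mouse, it was 1.92 (SE 0.22, edgeR adjusted p = 0.00433), a 3.74-fold difference of means. *Ms4a3* (ENSMUSG00000024681, chr19:11629496-11640851, minus strand) encodes a membrane-spanning protein of granulocyte and monocyte progenitors. It had 9783, 5653 and 1794 normalized counts in the control mice and 27845, 25473 and 28775 in the *MxCDX2* mice. Again no control mouse reached the lowest *MxCDX2* mouse, and the control mean of 5744 ± 3995 (SD, n = 3) was 4.76-fold below the *MxCDX2* mean of 27365 ± 1702 (SD, n = 3). The log2 fold change was 2.25 (SE 0.55, edgeR adjusted p = 0.0304), with a 95% interval from 0.94 to 3.56, and 1.85 (SE 0.24, edgeR adjusted p = 0.00607) without the wild-type control. DESeq2 called the same 2 genes, with adjusted p-values of 3.7e-05 and 0.000154, against a background of 15.7% of the genes it tested. Without the wild-type control edgeR called them too, against 14.9% of tested genes. The calls depended on which mouse was left out. They were kept without the *RsCDX2* control, with edgeR adjusted p-values of 0.0226 for *Ctsg* and 0.0215 for *Ms4a3*. With any of the 4 remaining mice left out, the adjusted p of *Ctsg* was 0.0651 without the *Mx1Cre* control and 0.0528, 0.0608 and 0.0768 without *MxCDX2* mouse 1, 2 and 3. The same values for *Ms4a3* were 0.0821, 0.0671, 0.0748 and 0.0877, so that neither gene was called in these 4 fits, although their log2 fold changes stayed between 2.22 and 2.38.

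**Figure D1:**
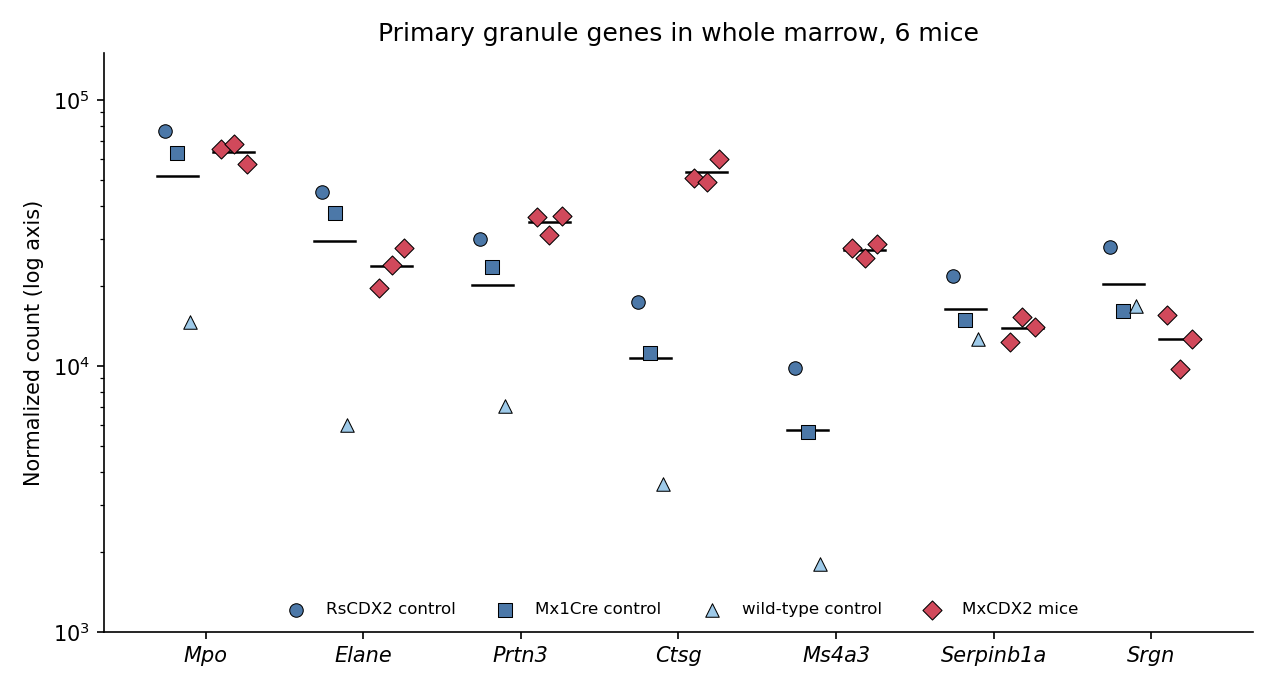
Normalized counts (log axis) of the 7 primary granule genes in each of the 6 mice, with the group means as black lines. The *MxCDX2* mice lie above every control for *Prtn3*, *Ctsg* and *Ms4a3* and below every control for *Srgn*, and the wild-type control (triangle) is the lowest of the 6 mice for *Mpo*, *Elane*, *Prtn3*, *Ctsg* and *Ms4a3*.

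*Mpo*, *Elane* and *Prtn3* encode the remaining main enzymes of the primary granules and did not pass the test. *Mpo* (ENSMUSG00000009350, chr11:87793581-87804413, plus strand), the gene of myeloperoxidase, had 76497, 63396 and 14673 normalized counts in the control mice and 65632, 68472 and 57529 in the *MxCDX2* mice. The *MxCDX2* mice lay among the *RsCDX2* and *Mx1Cre* controls or just below them, and the wild-type control was far lower. The control mean of 51522 ± 32578 (SD, n = 3) stood against 63878 ± 5678 (SD, n = 3) in the *MxCDX2* mice, and the log2 fold change was 0.31 (SE 0.54, edgeR adjusted p = 0.724) with a 95% interval from −0.98 to 1.60. Once the wild-type control was left out it turned to −0.11 (SE 0.15, edgeR adjusted p = 0.634), with an interval from −0.49 to 0.27, which is narrower than that of all mice.

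*Elane* (ENSMUSG00000020125, chr10:79886247-79888215, plus strand), the gene of neutrophil elastase, had 44871, 37489 and 5981 normalized counts in the control mice and 19589, 23990 and 27716 in the *MxCDX2* mice. The *MxCDX2* mice thus stood between the wild-type control and the other controls. The control mean of 29447 ± 20655 (SD, n = 3) stood against 23765 ± 4068 (SD, n = 3) in the *MxCDX2* mice, and the log2 fold change was −0.31 (SE 0.64, edgeR adjusted p = 0.77), with a 95% interval from −1.83 to 1.21. With the wild-type control left out it was −0.77 (SE 0.18, edgeR adjusted p = 0.0267), within the threshold on p but short of that on fold. Leaving out the *RsCDX2* control gave 0.14 instead, so that the direction for *Elane* depended on which control mice were used.

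*Prtn3* (ENSMUSG00000057729, chr10:79874476-79883174, plus strand), the gene of proteinase 3, had 30002, 23555 and 7077 normalized counts in the control mice and 36419, 31122 and 36496 in the *MxCDX2* mice. The groups did not overlap, but *MxCDX2* mouse 2 was only just above the *RsCDX2* control. The control mean of 20211 ± 11823 (SD, n = 3) stood against 34679 ± 3081 (SD, n = 3) in the *MxCDX2* mice, and the log2 fold change was 0.78 (SE 0.47, edgeR adjusted p = 0.288), with a 95% interval from −0.35 to 1.91. It was 0.39 (SE 0.15, edgeR adjusted p = 0.103) without the wild-type control. *Prtn3* and *Elane* are separated by 3072 bp, and yet *Prtn3* was above every control in the *MxCDX2* mice whereas *Elane* was not.

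*Serpinb1a* and *Srgn* encode partners of the proteases and also did not pass the test. *Serpinb1a* (ENSMUSG00000044734, chr13:32842092-32851185, minus strand), whose product inhibits neutrophil serine proteases in the cytosol, had 21706, 14934 and 12637 normalized counts in the control mice and 12289, 15308 and 14036 in the *MxCDX2* mice. The groups overlapped, and the log2 fold change was −0.24 (SE 0.22, edgeR adjusted p = 0.468), with a 95% interval from −0.76 to 0.27. It was −0.38 (edgeR adjusted p = 0.189) without the wild-type control and 0.02 without the *RsCDX2* control, the highest mouse. Its close paralogs *Serpinb1b* and *Serpinb1c* had at most 7 counts and 1 count in any mouse. *Srgn* (ENSMUSG00000020077, chr10:62493833-62527451, minus strand), the gene of serglycin, had 28020, 16131 and 16785 normalized counts in the control mice and 15491, 9717 and 12607 in the *MxCDX2* mice. All *MxCDX2* mice were below all control mice, by a small margin between *MxCDX2* mouse 1 and the *Mx1Cre* control. The control mean of 20312 ± 6683 (SD, n = 3) stood against 12605 ± 2887 (SD, n = 3) in the *MxCDX2* mice, and the log2 fold change was −0.69 (SE 0.27, edgeR adjusted p = 0.118), with a 95% interval from −1.33 to −0.04. Here the wild-type control was not apart, and the value without it was −0.79 (SE 0.28, edgeR adjusted p = 0.0898).

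In all, the groups did not overlap for 4 of the 7 genes, against a background of 42.1% of tested genes. For these 4 genes the exact two-sided permutation test gave p = 0.10, the smallest that 3 mice against 3 can give, and it gave 0.8 for *Mpo* and *Elane* and 0.6 for *Serpinb1a*.

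**Figure D2:**
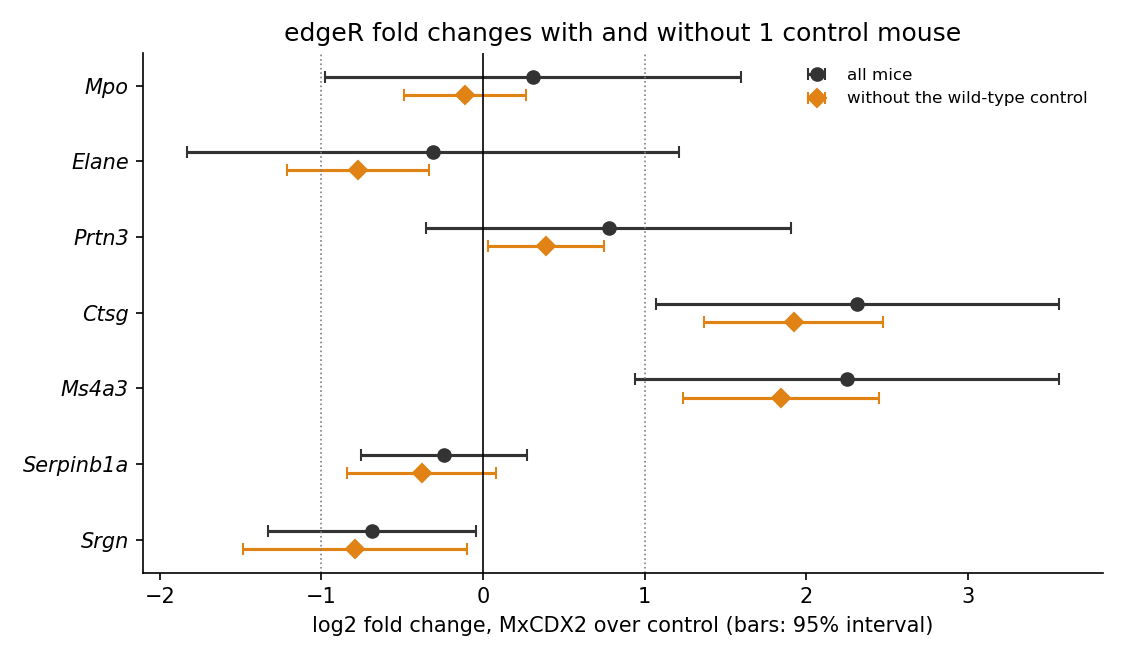
log2 fold change of each gene (MxCDX2 over control) from edgeR with its 95% interval, for all 6 mice (circles) and without the wild-type control (diamonds), with dotted lines at the fold threshold of 1 in either direction. *Ctsg* and *Ms4a3* lie far to the right of 0 in both, the intervals of the 5 genes low in the wild-type control narrow without it, and *Mpo* changes sign from 0.31 to −0.11.

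The spread among mice differed between the groups. The coefficient of variation over the control mice was 63.2% for *Mpo*, 70.1% for *Elane*, 58.5% for *Prtn3*, 64.2% for *Ctsg* and 69.6% for *Ms4a3*, and over the *MxCDX2* mice it was 8.89%, 17.1%, 8.88%, 10.96% and 6.22%. For *Serpinb1a* and *Srgn* it was 28.7% and 32.9% in the control mice and 10.92% and 22.9% in the *MxCDX2* mice. The wild-type control was 4.77-fold below the mean of the other controls for *Mpo*, 6.89-fold for *Elane*, 3.78-fold for *Prtn3*, 3.95-fold for *Ctsg* and 4.30-fold for *Ms4a3*. It was the lowest of the 6 mice for 5 of 7 granule genes, a place it had in 22.59% of tested genes, and was above 2 times both other controls for 0 of the 7, against 8.80% of tested genes. Summed, the 7 genes made 0.462%, 0.362% and 0.138% of counted reads in the control mice and 0.507%, 0.523% and 0.546% in the *MxCDX2* mice.

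Divided by exon length, the order of the genes changed between the groups. Levels here are scaled reads per kb of exon per 1000000 reads. In the control mice the mean levels were 657 for *Elane*, 330.3 for *Mpo*, 256 for *Prtn3*, 228 for *Ctsg*, 203 for *Srgn*, 157 for *Serpinb1a* and 66.9 for *Ms4a3*. The ranges over mice overlapped between each gene and the next in this order, except between *Serpinb1a* and *Ms4a3*. Within single control mice each gene was above the next in all 3, except *Ctsg* over *Srgn*, in 2. In the *MxCDX2* mice *Ctsg* came first, at 1135 ± 124 (SD, n = 3), followed by *Elane* at 530.2, *Prtn3* at 439.6, *Mpo* at 409.6, *Ms4a3* at 319, *Serpinb1a* at 132 and *Srgn* at 126. There *Ctsg* did not overlap with *Elane*, nor *Mpo* with *Ms4a3*, nor *Ms4a3* with *Serpinb1a*, while the other neighbours overlapped. These others, *Elane* over *Prtn3*, *Prtn3* over *Mpo* and *Serpinb1a* over *Srgn*, held their order in 2 of 3 mice. *Ctsg* thus moved from the 4th to the 1st place and *Ms4a3* from the 7th to the 5th. The lengths cover all annotated exons, including those of rare transcripts, and by counts alone *Mpo* came first in either group.

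**Figure D3:**
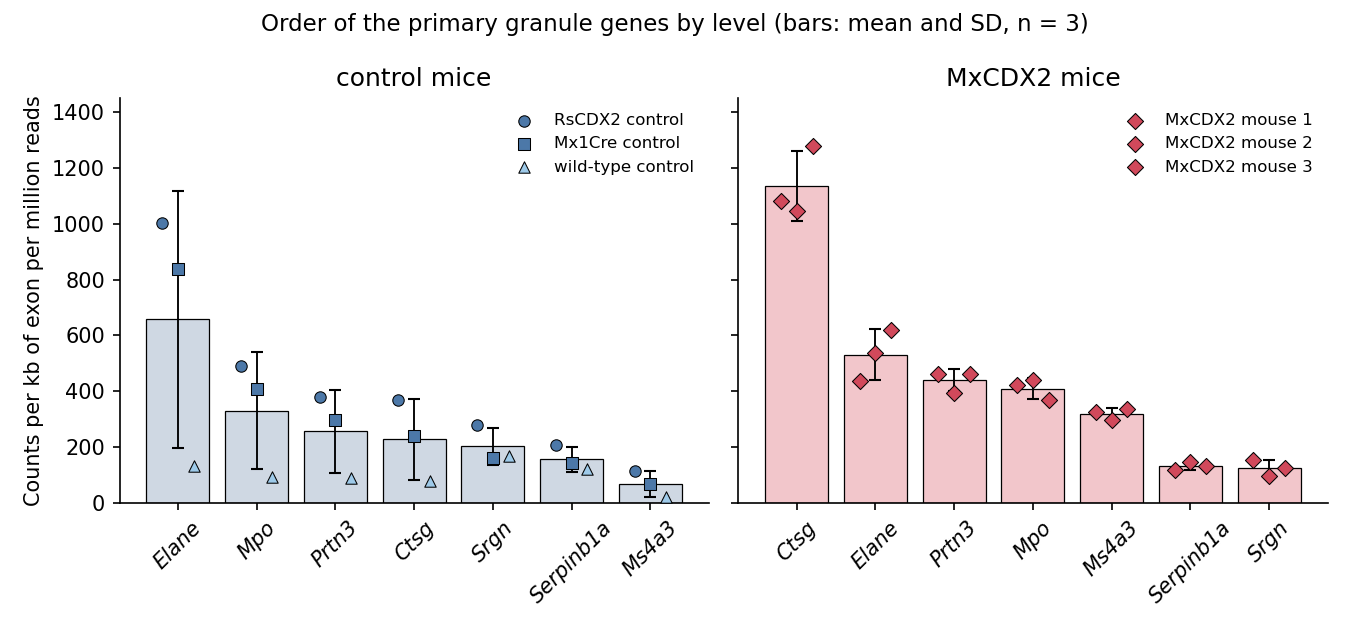
Level of each gene as scaled counts per kb of exon per 1000000 reads, in the order of the group mean, for the control mice (left) and *MxCDX2* mice (right), with bars for the mean and SD (n = 3) and points for mice. *Elane* leads in the control mice at 657 and *Ctsg* in the *MxCDX2* mice at 1135.

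Ratios of counts between genes of the same mouse do not depend on scaling and show which granule genes moved together. The log2 ratio of *Ctsg* to *Ms4a3* was 0.83, 0.99 and 1.01 in the control mice and 0.87, 0.95 and 1.06 in the *MxCDX2* mice. These values overlap, with a mean difference of 0.02 (exact permutation p = 0.8), so that *Ctsg* had close to the same excess over *Ms4a3* in all 6 mice, the wild-type control included, although each gene spanned a wide range. The ratio of *Mpo* to *Ctsg* behaved otherwise. It was 2.14, 2.502 and 2.02 in the control mice and 0.37, 0.48 and −0.06 in the *MxCDX2* mice, a drop of 1.96 on the log2 scale with no overlap (difference −1.96, exact permutation p = 0.10). In counts, *Mpo* exceeded *Ctsg* 4.67-fold in the control mice and 1.198-fold in the *MxCDX2* mice. The difference was −2.46 for *Elane* to *Ctsg* and −1.57 for *Prtn3* to *Ctsg*, where the wild-type control, at 0.97, was between the other controls at 0.79 and 1.07. Against *Srgn*, *Ctsg* gained 3.25 on the log2 scale, the largest difference among the 21 pairs. Within the enzymes that were not called, the ratio of *Mpo* to *Elane* overlapped between the groups (difference 0.50, exact permutation p = 0.2), as did that of *Mpo* to *Prtn3* (difference −0.40, exact permutation p = 0.2). *Elane* to *Prtn3* was 0.58, 0.67 and −0.24 in the control mice and −0.89, −0.38 and −0.40 in the *MxCDX2* mice, with a mean difference of −0.89 and a narrow gap set by the wild-type control. Of the 21 pairs, 14 did not overlap, each at the smallest exact permutation p of 0.10, which became 0.15 after adjustment over the 21 pairs. The pairs share genes and are not independent, and most of these 14 hold *Ctsg* or *Ms4a3*, the called genes. How often ratios between other tested genes do not overlap was not computed, so that this count has no background.

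**Figure D4:**
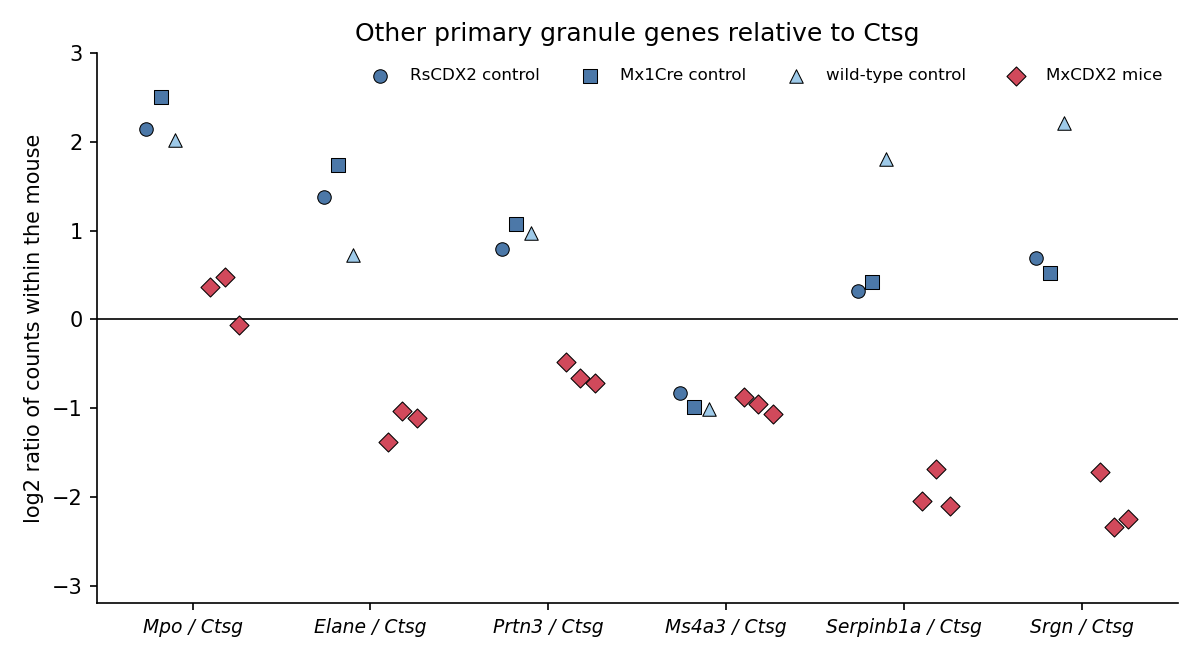
log2 ratio of the counts of each other granule gene to those of *Ctsg* within each mouse. The ratio of *Ms4a3* to *Ctsg* is close to −1 in all 6 mice, and those of *Mpo*, *Elane*, *Prtn3*, *Serpinb1a* and *Srgn* are lower in every *MxCDX2* mouse than in every control mouse.

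Next to the 7 genes stand other contents of the same granules, mostly lysosomal hydrolases shared by many cell types. For this list and the lists below, the background was 4.59% of tested genes upregulated and 9.03% downregulated. Of 16 tested genes of this list 4 were upregulated, among them *Arsa*, *Hexa* and *Gusb*, and 0 downregulated, with a median log2 fold change of 0.52, against a median of 0.00205 over all tested genes. *Arsa*, which encodes arylsulfatase A, had 1015, 1109 and 1283 normalized counts in the control mice and 2275, 2396 and 2384 in the *MxCDX2* mice (log2 fold change 1.05, SE 0.12, edgeR adjusted p = 0.00299), short of the fold threshold without the *RsCDX2* control. *Lyz2*, the lysozyme gene of myeloid cells and the most abundant of the list, overlapped between the groups, with a log2 fold change of 0.23 (SE 0.27, edgeR adjusted p = 0.589). *Prss57*, a serine protease of the same granules, had 2736, 1870 and 773 and then 948, 728 and 745 normalized counts and did not pass with all mice (log2 fold change −1.15, edgeR adjusted p = 0.1). When the wild-type control was left out, 3 genes of the list were upregulated and 1 downregulated, the latter being *Prss57* (log2 fold change −1.49, edgeR adjusted p = 0.0064). *Prss57*, *Hexa* and *Gusb* fell outside the rule for named genes and were chosen after their values were seen.

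Among 14 tested genes for activation, inhibition and trafficking of the proteases, 1 was upregulated and 2 were downregulated (median log2 fold change 0.37). *Ctsc*, whose product cathepsin C activates the granule serine proteases, had 6931, 4848 and 6081 normalized counts in the control mice and 14366, 11595 and 11064 in the *MxCDX2* mice (log2 fold change 1.05, SE 0.17, edgeR adjusted p = 0.00792). It lost its call without the *Mx1Cre* control or *MxCDX2* mouse 1. The serpins *Serpinb6a* and *Serpinb6b* were downregulated, with log2 fold changes of −1.37 (edgeR adjusted p = 0.0313) and −1.03 (edgeR adjusted p = 0.0406). Both were short of the fold threshold, at −0.94 and −0.78, without the wild-type control, and 0 genes of the list were then downregulated. *Serpinb6a* was called in 1 and *Serpinb6b* in 0 of the 6 fits that left out a mouse. The chaperone gene *Calr* was the most abundant that did not pass (log2 fold change 0.59, edgeR adjusted p = 0.0633).

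The chondroitin sulfate chains that serglycin carries are built by another 19 tested genes, of which 0 were upregulated and 1 was downregulated (median −0.33). That gene was *Chst15*, a chondroitin sulfate sulfotransferase, with 4736, 6191 and 4381 normalized counts in the control mice and 2065, 2674 and 2083 in the *MxCDX2* mice (log2 fold change −1.17, SE 0.17, edgeR adjusted p = 0.006). It remained called with each mouse left out in turn. *Chst12* overlapped between the groups (log2 fold change −0.04). The number downregulated was 3 without the wild-type control.

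Other early granulocyte genes were mostly not called. Of 16 tested, 2 were upregulated and 1 downregulated, with a median log2 fold change of −0.04. Over all tested genes these shares were 4.59% and 9.03%. *Plac8*, expressed in myeloid progenitors and monocytes, had 19168, 15468 and 15098 normalized counts in the control mice and 53678, 49087 and 52219 in the *MxCDX2* mice (log2 fold change 1.64, SE 0.15, edgeR adjusted p = 0.00177). *Gstm1*, a glutathione transferase gene, was upregulated (log2 fold change 1.23, SE 0.30, edgeR adjusted p = 0.029), but was called in only 1 of the 6 fits that left out a mouse and had a log2 fold change of 0.98 without the wild-type control. *Trem3*, a receptor gene of the myeloid lineage, was downregulated, from 6369, 5370 and 3664 to 2052, 2159 and 1494.7 normalized counts (log2 fold change −1.43, SE 0.24, edgeR adjusted p = 0.00844). *Hk3* was above all controls in the *MxCDX2* mice without passing (log2 fold change 0.75, edgeR adjusted p = 0.0635). The counts were 1 upregulated and 4 downregulated without the wild-type control.

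Of 12 tested regulators of granule genes 2 were upregulated and 0 downregulated (median 0.51). *Cebpa*, the C/EBP factor needed to enter the granulocyte lineage, had 2422, 2472 and 2167 normalized counts in the control mice and 6821, 6775 and 9601 in the *MxCDX2* mice (log2 fold change 1.72, SE 0.16, edgeR adjusted p = 0.00191), and was called with each mouse left out. *Irf8*, a factor of the monocyte lineage, had 8706, 12780 and 17750 and then 22646, 37140 and 28423 normalized counts (log2 fold change 1.17, SE 0.30, edgeR adjusted p = 0.0355), but passed in only 2 of the 6 fits that left out a mouse. *Spi1*, which encodes PU.1, overlapped between the groups (log2 fold change 0.14, SE 0.15, edgeR adjusted p = 0.536). Leaving out the wild-type control gave 2 upregulated and 2 downregulated regulators.

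Most genes of the later granules were downregulated, opposite in direction to *Ctsg* and *Ms4a3*. *Elane*, *Serpinb1a* and *Srgn* also had negative log2 fold changes, without being called. Of 17 tested secondary and tertiary granule genes 0 were upregulated and 10 downregulated, with a median log2 fold change of −1.71, and 12 were downregulated without the wild-type control. *Mmp25*, a membrane-anchored metalloproteinase gene, had 7200, 7292 and 6446 normalized counts in the control mice and 1557, 1093 and 1137 in the *MxCDX2* mice (log2 fold change −2.47, SE 0.16, edgeR adjusted p = 0.00103). *Retnlg* was downregulated alike (log2 fold change −2.41, SE 0.22, edgeR adjusted p = 0.00176). *Ngp*, the most abundant gene of the list, was below all controls in the *MxCDX2* mice without passing (log2 fold change −1.06, SE 0.35, edgeR adjusted p = 0.0762). Within each mouse, the log2 ratio of the summed levels of the 7 primary granule genes to those of the later granule genes was −3.73, −3.81 and −4.83 in the control mice and −2.18, −2.46 and −2.13 in the *MxCDX2* mice. The groups did not overlap, and their means differed by 1.87 (exact permutation p = 0.10). The difference was 1.51 without the wild-type control. *Ctsg* alone gave 368, 238 and 76.8 of the primary sums of 2841, 2149 and 703 in the control mice. In the *MxCDX2* mice it gave 1082.5, 1045 and 1276 of 2998, 2953 and 3321. The ratio without *Ctsg* was not computed.

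Markers of other cell types moved in the same libraries, and their part in the values of the granule genes was not tested. Of 13 mature neutrophil markers 7 were downregulated, with summed levels from 42786 to 59166 in the control mice and from 15313 to 21644 in the *MxCDX2* mice. Of 13 monocyte markers 9 were upregulated, with summed levels from 1377 to 1525 in the control mice and from 3951 to 4421 in the *MxCDX2* mice. All 15 erythroid markers tested were downregulated, and their summed level in the *MxCDX2* mice was 0.0568 times that of the control mice. With the erythroid markers left out of the scaling, *Ctsg* and *Ms4a3* stayed upregulated, which concerns the scaling alone and not the numbers of cells. The eosinophil markers, 0 of 9 called, were low in the wild-type control, at 0.233 times the mean of the other controls, as the granule genes were, at 0.282 times. In the *MxCDX2* mice the eosinophil sums ran from 241 to 3393, whereas those of the 7 granule genes ran from 2953 to 3321. Of 9 megakaryocyte markers 3 were downregulated, and 6 without the wild-type control. Of 12 stem and progenitor markers 1 was upregulated and 3 downregulated, of 12 B cell markers 5 and of 12 T and NK cell markers 3 were downregulated, and of 9 mast cell and basophil markers 1 was upregulated and 4 were downregulated, *Tpsab1* being at 0 in all mice. Without the wild-type control 10 B cell markers were downregulated.

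**Figure D5:**
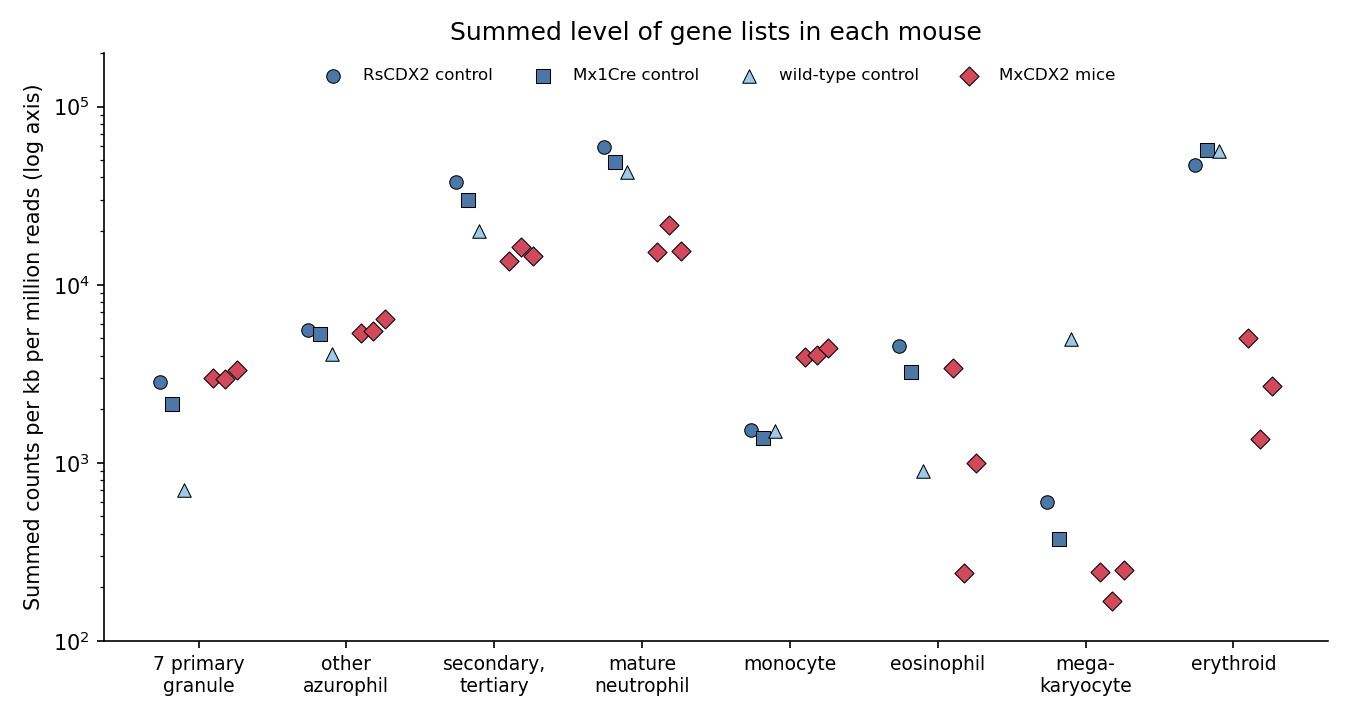
Summed level (scaled counts per kb of exon per 1000000 reads, log axis) of 8 gene lists in each of the 6 mice. The granule genes and eosinophil markers are low and the megakaryocyte markers high in the wild-type control (triangle), the monocyte markers are higher and the secondary and tertiary granule, mature neutrophil and erythroid genes lower in every *MxCDX2* mouse than in every control mouse.

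On one side of *Ctsg* and of *Ms4a3* on the chromosome, the nearest tested neighbour was called and changed in the opposite direction. On the other side the neighbour was not called. *Mcpt8*, a basophil protease gene 14607 bp from *Ctsg* in the same protease cluster, was downregulated, with 3300, 4142 and 3309 normalized counts in the control mice and 1447, 1682 and 893 in the *MxCDX2* mice (log2 fold change −1.42, SE 0.24, edgeR adjusted p = 0.00942). *Ms4a2*, which encodes a chain of the IgE receptor and lies 5776 bp from *Ms4a3*, was also downregulated (log2 fold change −1.06, SE 0.28, edgeR adjusted p = 0.0392), but was called in 1 of the 6 fits that left out a mouse. *Oosp1*, 26608 bp from *Ms4a3* on its other side, was above all controls in the *MxCDX2* mice without being called (log2 fold change 1.01, SE 0.30, edgeR adjusted p = 0.0552). *Gzmb*, 156263 bp from *Ctsg* on its other side, overlapped between the groups (log2 fold change 0.10, edgeR adjusted p = 0.902). *Serpinb6b*, 114023 bp from *Serpinb1a*, is described above. *Cfd*, 2637 bp beyond *Elane*, had 16.6, 78.4 and 154 normalized counts in the control mice and 91.1, 299 and 439.6 in the *MxCDX2* mice, with overlapping groups (log2 fold change 1.73, SE 0.84, edgeR adjusted p = 0.191). Of genes that overlap the granule genes on the opposite strand, *Gm11505* within *Mpo* had at most 13 counts. *Plppr3*, which overlaps the first exon of a long *Prtn3* transcript, had 1124, 1461 and 1521 counts in the control mice and 4578, 6325 and 6532 in the *MxCDX2* mice. How reads of either strand were counted is not stated in the methods, so that reads in that overlap could have been assigned to either gene or left out.

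Outside the primary granule genes, the genes most like each of them were found by Pearson's r of log2 CPM over the 6 mice. Compared were 11975 tested genes whose mean reached 100 normalized counts. The primary granule genes were not candidates for each other. *Ctsg* and *Ms4a3*, whose ratio was close to the same in all 6 mice, were therefore not compared with each other here. With 6 mice in 2 groups, high values are frequent, and r exceeded 0.95 for 370 genes with *Ctsg*, 330 with *Ms4a3*, 153 with *Prtn3*, 99 with *Mpo*, 50 with *Srgn*, 32 with *Elane* and 11 with *Serpinb1a*. The leading genes were *Osgin2* and *Magi3* for *Mpo*, *Rps6kb1* and *Xab2* for *Elane*, *Dhx38* and *Impa2* for *Prtn3*, *Zfp330* and *Kcnab2* for *Ctsg*, *Lsg1* and *Trim45* for *Ms4a3*, *Fancd2* and *Asnsd1* for *Serpinb1a* and *Ckap2l* and *Psmd5* for *Srgn*, with r from 0.974 to 0.999. Most of them spanned a narrower range than the granule genes. *Magi3* showed the low wild-type value, with 1196, 1015 and 491 normalized counts in the control mice and 1125, 1082 and 1020 in the *MxCDX2* mice. *Trim45* was the only one of the 14 past the thresholds, with 457, 398 and 192 and then 828, 839 and 854 normalized counts (log2 fold change 1.27, edgeR adjusted p = 0.0333), and was called in 1 of the 6 fits that left out a mouse.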

How the data were processed

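The authors demultiplexed reads with bcl2fastq (2.17.1.14), aligned them to GRCm38 with STAR (2.5) and counted them per gene with HTSeq (0.6.1), with annotation from Ensembl release 90. The deposited values are raw counts per gene and mouse, without normalization. Groups came from the sample labels, which number the *MxCDX2* mice only. Symbols, positions and exon lengths came from GENCODE M21.

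Counts were tested in R 4.3.3 with edgeR 4.0.16 (TMM, default filterByExpr, glmQLFit and glmQLFTest) over the 15980 genes that passed the filter on low counts, and the tests were tested on simulated data. Standard errors and intervals were derived from the F statistic. A gene was called at an adjusted p below 0.05 with a log2 fold change beyond 1 in size. DESeq2 1.42.0 and limma 3.58.1 (voom) were alternatives. Further alternatives were size factors of DESeq2, total counts, removal of the 10 most abundant genes, erythroid markers left out of the scaling, looser and stricter filters on low counts, a stricter p, the edgeR test against a minimal log2 fold change of 1 and each mouse left out. Ratios and permutation tests were computed in Python 3.11.15 (scipy 1.17.1). The granule genes, lists and tests were chosen with earlier results of these data known. Named list genes were up to 2 called per direction with the lowest adjusted p and the most abundant not called. A gene that this rule names is not reported here. Of the reads that were assigned to a gene, to no gene or to several, 9.22% to 14.06% fell on no gene. On several genes fell 2.99% to 3.16%. *Ahsp* was not matched, and *Bpi*, *Mcpt4* and *Tpsb2* did not pass the filter. Motifs in promoters were chosen after the sequences were available. No pair of libraries had counts within sampling noise of each other.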

Additional observations from a re-analysis of the deposited data

How the results depend on the processing

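The calls of *Ctsg* and *Ms4a3* and the count of 2 called granule genes held under DESeq2, limma-voom, every scaling and every filter on low counts tried. They were lost, with 0 of the 7 genes called, at an adjusted p below 0.01 (log2 fold changes 2.32 and 2.25 unchanged), in the test against a log2 fold change of 1 (2.32 with adjusted p 0.137 and 2.25 with adjusted p 0.177) and in 4 of the 6 fits that left out a mouse. With each mouse left out, the log2 fold change ran from 1.92 to 2.86 for *Ctsg*, from 1.85 to 2.89 for *Ms4a3*, from −0.77 to 0.14 for *Elane*, from −0.11 to 0.72 for *Mpo*, from −0.38 to 0.02 for *Serpinb1a*, from 0.39 to 1.19 for *Prtn3* and from −0.86 to −0.37 for *Srgn*, and the number of called granule genes from 0 to 2. *Elane* turned to 0.11 in limma-voom and to 0.14 without the *RsCDX2* control, *Serpinb1a* to 0.02 without the *RsCDX2* control and *Mpo* to −0.11 without the wild-type control, and the cause was not tested. Over all genes 2177 calls became 1043 at an adjusted p below 0.01, 611 in the test against a log2 fold change of 1, and 1205 to 2406 with a mouse left out. Without division by length, 4 of the 14 places in the order of the genes stayed. The log2 ratio of primary to later granule genes differed by 2.29 as a mean of log2 values, by 2.22 without *Lyz2*, an alternative chosen after seeing the data, and by 1.51 to 2.06 with a mouse left out. No paired analysis was possible because the control mice, each of another genotype, carry no replicate number in the labels.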
